A study of Mus musculus with 6 samples.

Results

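Aldo-keto reductases are soluble enzymes that use NADPH or NADH to reduce aldehydes and ketones to alcohols. The branch named Akr1c holds hydroxysteroid dehydrogenases, which switch progestins and androgens between active and inactive forms, and the branch named Akr1b holds aldose reductase and its relatives, which reduce sugars, lipid aldehydes and prostaglandin precursors. In the ovary the best known member is *Akr1c18*, whose enzyme turns progesterone into an inactive alcohol in the corpus luteum.

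A list of 10 genes of this family, proposed with earlier results of these arrays known, was read in M0505 and STOSE cells. Each gene was represented by the probe set chosen by its mean over the 6 arrays, the highest where a gene had several. Of the 10 genes, 9 were found under their listed symbol among the 20405 genes of the table, namely *4921521F21Rik* (named *Akr1cl* in RefSeq), *Akr1c12*, *Akr1c13*, *Akr1c14*, *Akr1c18*, *Akr1b3*, *Akr1b7*, *Akr1b8* and *Akr1e1*. The remaining gene, *Akr1a1*, is present under its older symbol *Akr1a4* and is described with 10 further family genes, which brings the family to 20 genes. M0505 is a line of ovarian surface epithelial cells from FVB/N mice, and STOSE is the transformed line that arose from it on long passage. Both were grown in the same medium (α-Minimal Essential Medium with fetal calf serum, EGF and ITSS), and total RNA of 3 samples per line, labeled as biological replicates, was hybridized to Affymetrix Mouse Gene 1.0 ST arrays. No label says that the replicates were separate cultures, so the p-values measure the spread between these samples, and each line is 1 line, so independent transformations were not sampled.

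The values are robust multi-array average (RMA) values on a log2 scale, so a difference of 1 is a 2-fold change. A gene was called when limma's adjusted p was under 0.05 and the fold change was at least 2. Background was taken as the 95th percentile of the values of the 1134 olfactory receptor probe sets, 4.74. The medians of the 6 arrays over genes lay between 6.25 and 6.49, and Pearson's r across genes, which are not independent replicates, was 0.997 to 0.999 within a line and 0.943 to 0.950 between the lines. Of 10 markers of ovarian surface epithelium, 9 were above background in both lines and *Lhx9* in neither. Of these, *Krt8* (11.37 in M0505 and 6.82 in STOSE), *Krt19* (11.17 and 5.61), *Krt7* (11.26 and 10.23) and *Gata4* (10.78 and 9.40) were lower in STOSE cells past the threshold. These 4 of 10 stand beside 7.59% of all genes called lower. By limma's adjusted p without a fold threshold, 9 of the 10 markers were lower and 0 higher, beside 24.8% and 31.6% of all genes. Half-way through their ranked log2 fold changes lay -0.74, against 0.08 for all genes. *Krt7* was under 2-fold after centring of each array on its median (-0.83), without M0505 replicate 2 (-0.985) or 3 (-0.997) and without STOSE replicate 1 (-0.89). The linear levels of the 10 markers summed to 25278 to 26470 on the M0505 arrays and 13529 to 14425 on the STOSE arrays. In cultures of this kind, fewer cells of a type and less RNA per cell cannot be told apart.

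The upstream sequences of 5 Akr1c genes are given first, because 4 of these genes fell in STOSE cells and *Akr1c18*, which lies between 2 of them, did not. RefSeq windows (assembly GRCm38.p6) were found for 17 of the 20 family genes, and the 250 bases before the start of each transcript were read. The windows of *Akr1c12* (chr13:4279400-4279649, minus strand) and *Akr1c13* (chr13:4190937-4191186, plus strand) were 92.5% identical over an alignment of 254 positions, with 235 identical bases, 11 mismatches and 8 gap positions. The capitals in this pair mark the bases that differ or face a gap.
Akr1c12: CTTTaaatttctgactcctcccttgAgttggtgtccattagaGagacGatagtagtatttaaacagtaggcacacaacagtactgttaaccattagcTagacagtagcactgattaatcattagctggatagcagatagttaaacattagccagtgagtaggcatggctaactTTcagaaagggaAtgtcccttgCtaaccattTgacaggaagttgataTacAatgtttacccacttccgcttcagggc
Akr1c13: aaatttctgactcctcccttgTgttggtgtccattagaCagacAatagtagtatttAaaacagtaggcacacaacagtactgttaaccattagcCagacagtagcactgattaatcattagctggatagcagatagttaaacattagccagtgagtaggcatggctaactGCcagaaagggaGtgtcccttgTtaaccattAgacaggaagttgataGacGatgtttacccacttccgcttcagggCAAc

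No other aligned pair of family windows came near this value, since the next highest was *Akr1c13* with *Akr1c19* at 60.3%, and the median pair was at 49.2%. *Kcnab1* and *Kcnab2* have several windows, of which only the last was aligned. The windows of *Akr1c14* (chr13:4059341-4059590, plus strand), *Akr1c18* (chr13:4150647-4150896, minus strand) and *Akr1cl* (chr1:65032760-65033009, minus strand) are given with capitals at matches to 5 motifs searched on both strands. The motifs were TATAAA (the TATA box), CCAAT, TGACNNNGC (the core of the antioxidant response element), TGANTCA (the AP-1 site) and CAAGGTCA (bound by SF-1 and LRH-1).
Akr1c14: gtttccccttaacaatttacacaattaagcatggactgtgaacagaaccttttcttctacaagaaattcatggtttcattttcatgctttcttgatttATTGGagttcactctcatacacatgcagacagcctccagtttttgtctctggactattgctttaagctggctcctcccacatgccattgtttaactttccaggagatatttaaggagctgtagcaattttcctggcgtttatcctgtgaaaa
Akr1c18: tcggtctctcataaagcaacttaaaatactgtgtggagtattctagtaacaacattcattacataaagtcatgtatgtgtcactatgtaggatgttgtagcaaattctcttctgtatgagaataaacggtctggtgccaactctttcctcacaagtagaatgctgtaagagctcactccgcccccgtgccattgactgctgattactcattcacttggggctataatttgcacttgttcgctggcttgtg
Akr1cl: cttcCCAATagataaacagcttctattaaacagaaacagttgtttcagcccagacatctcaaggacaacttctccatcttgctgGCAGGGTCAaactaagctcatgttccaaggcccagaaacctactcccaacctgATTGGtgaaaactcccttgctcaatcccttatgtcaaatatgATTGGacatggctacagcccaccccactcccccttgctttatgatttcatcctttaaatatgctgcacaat

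The window of *Akr1cl* held 3 matches to CCAAT and 1 to TGACNNNGC, and that of *Akr1c14* held 1 match to CCAAT. The windows of *Akr1c12*, *Akr1c13* and *Akr1c18* held none of the 5 motifs. Among the 32851 windows of all genes, 33.8% held CCAAT, 12.4% TATAAA, 10.2% TGACNNNGC, 6.75% TGANTCA and 1.33% CAAGGTCA. These are shares of windows with at least 1 match, and the share with 3 matches to CCAAT was not counted. The AP-1 and antioxidant motifs can overlap. The share of G and C in the 5 windows ran from 38.8% in *Akr1c14* to 44.0% in *Akr1cl*, against a median of 52.4% over all windows.

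Of the 9 genes, 4 were called lower in STOSE cells and 0 were called higher by limma and by the methods' t-test alike, beside 7.59% and 4.9% of all 20405 genes. At an unadjusted p under 0.05, 1 of the 9 was higher and 6 were lower, beside 35.1% and 26.1% of all genes. The 4 were *4921521F21Rik*, *Akr1c12*, *Akr1c13* and *Akr1c14*, all of the Akr1c branch. The arrays of the lines did not overlap in 7 of the 9, beside 64.6% of all genes. The median log2 fold change of the 9 was -0.32, beside 0.08 over all genes. Because the family was proposed with this comparison known, these counts describe the genes and are not evidence about the family. The p-values given below for single members come from this same comparison. They describe the spread of these arrays and are not a fresh test of genes chosen beforehand.

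**Figure D1:**
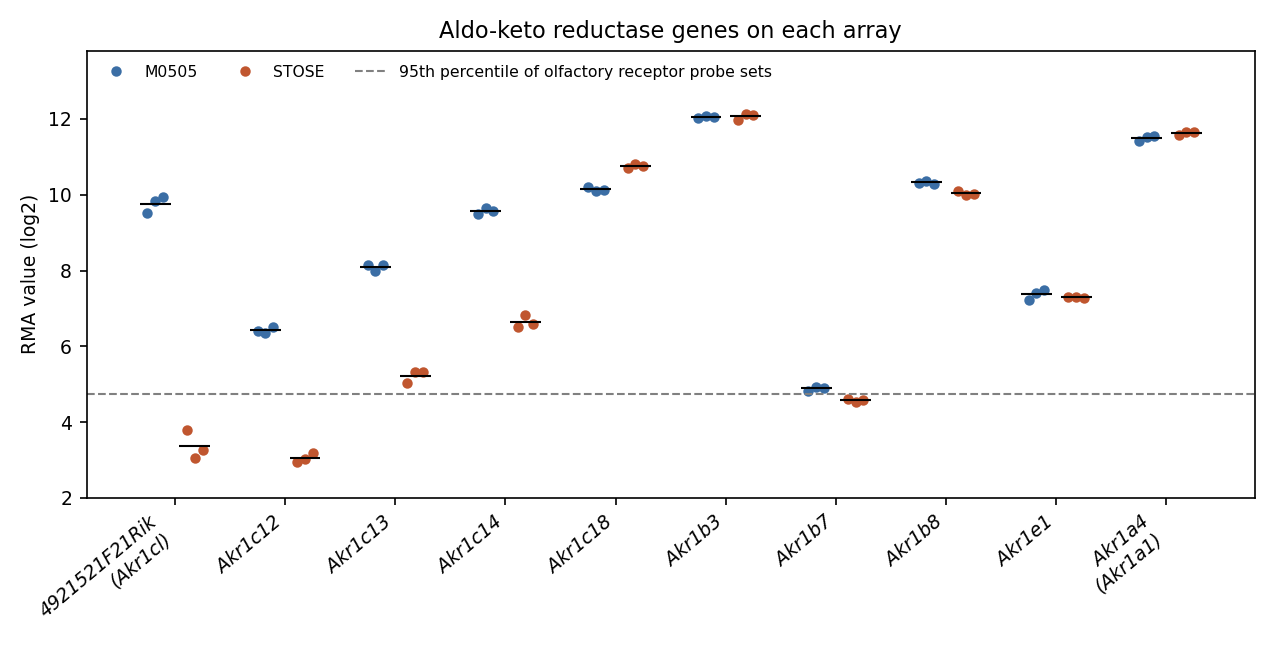
RMA log2 values (vertical axis) of the 9 genes and *Akr1a4* on each array, with 1 point per array, 3 M0505 arrays in blue and 3 STOSE arrays in orange, a black bar at the mean of each line and a dashed line at the background of 4.74. *4921521F21Rik* and *Akr1c12* drop from above to below the dashed line, *Akr1c13* and *Akr1c14* drop but stay above it, and the lines overlap at about 12 for *Akr1b3*.

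*4921521F21Rik* (*Akr1cl*, chromosome 1) had the largest difference of the family. Its log2 values were 9.52, 9.84 and 9.94 on the M0505 arrays and 3.78, 3.06 and 3.27 on the STOSE arrays. All 3 STOSE arrays were under background, and the lines were separated by far more than the range within either line (0.43 in M0505 and 0.72 in STOSE). The means were 9.77 ± 0.22 (SD, n = 3) and 3.37 ± 0.37, a log2 fold change of -6.40. Taken against background, the level was at least 32.6-fold lower in STOSE cells. This gene's place among the largest falls is what drew attention to the family, so its values, its place in the count of called genes and its interval in the plot of fold changes are a description, and no p-value is given for it. The 5 genes of the array whose pattern over the 6 arrays was most like it, by the Euclidean distance of log2 values centred on each gene's mean, were *Thbd* (0.46), *Gpr126* (0.50), *Gpr64* (0.52), *Uchl1* (0.61) and *Cybrd1* (0.75). In that order their log2 fold changes were -6.25, -6.59, -6.66, -6.14 and -6.37. A small distance requires a difference between the lines of similar size, and shared regulation was not tested.

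*Akr1c14* and its neighbours in the Akr1c cluster on chromosome 13 came next. *Akr1c14* encodes a hydroxysteroid dehydrogenase that reduces dihydroprogesterone and dihydrotestosterone. Its log2 values were 9.49, 9.65 and 9.58 in M0505 cells and 6.51, 6.83 and 6.60 in STOSE cells. Every STOSE array was lower than every M0505 array, yet all stayed above background. The fall was 7.61-fold, with a log2 fold change of -2.93 (standard error 0.09) and an adjusted p of 7.19e-08 from limma.

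*Akr1c13* had log2 values of 8.13, 7.98 and 8.15 in M0505 cells and 5.03, 5.31 and 5.33 in STOSE cells. It fell 7.30-fold, with a log2 fold change of -2.87 (standard error 0.09) and an adjusted p of 8.51e-08 from limma, and its STOSE arrays also stayed above background. The 95% confidence intervals of *Akr1c13* (-3.08 to -2.65) and *Akr1c14* (-3.14 to -2.72) overlapped.

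*Akr1c12* had log2 values of 6.40, 6.34 and 6.52 in M0505 cells and 2.96, 3.02 and 3.18 in STOSE cells, all 3 of the latter under background. The measured difference was 10.3-fold, with a log2 fold change of -3.37 (confidence interval -3.55 to -3.19) and an adjusted p of 1.46e-08 from limma, and against background the level was at least 3.20-fold lower. *Akr1c12* and *Akr1c13* are closely related genes, as the paired upstream windows above show. Probe sequences were not used here, so how far each probe set reads the other's RNA is uncertain.

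*Akr1c18*, the progesterone-inactivating enzyme, went the other way. Its log2 values were 10.21, 10.09 and 10.13 in M0505 cells and 10.71, 10.81 and 10.76 in STOSE cells. The 3 STOSE arrays were all above the 3 M0505 arrays, and the ranges within the lines were 0.12 and 0.11. The difference of 0.62 (standard error 0.06, confidence interval 0.47 to 0.76), which is 1.53-fold, passed the adjusted p of limma (4.63e-05) but not the 2-fold threshold. Among the 9 genes it was the only one higher in STOSE cells at the adjusted p alone, and 6 were lower, beside 31.6% and 24.8% of all genes.

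**Figure D2:**
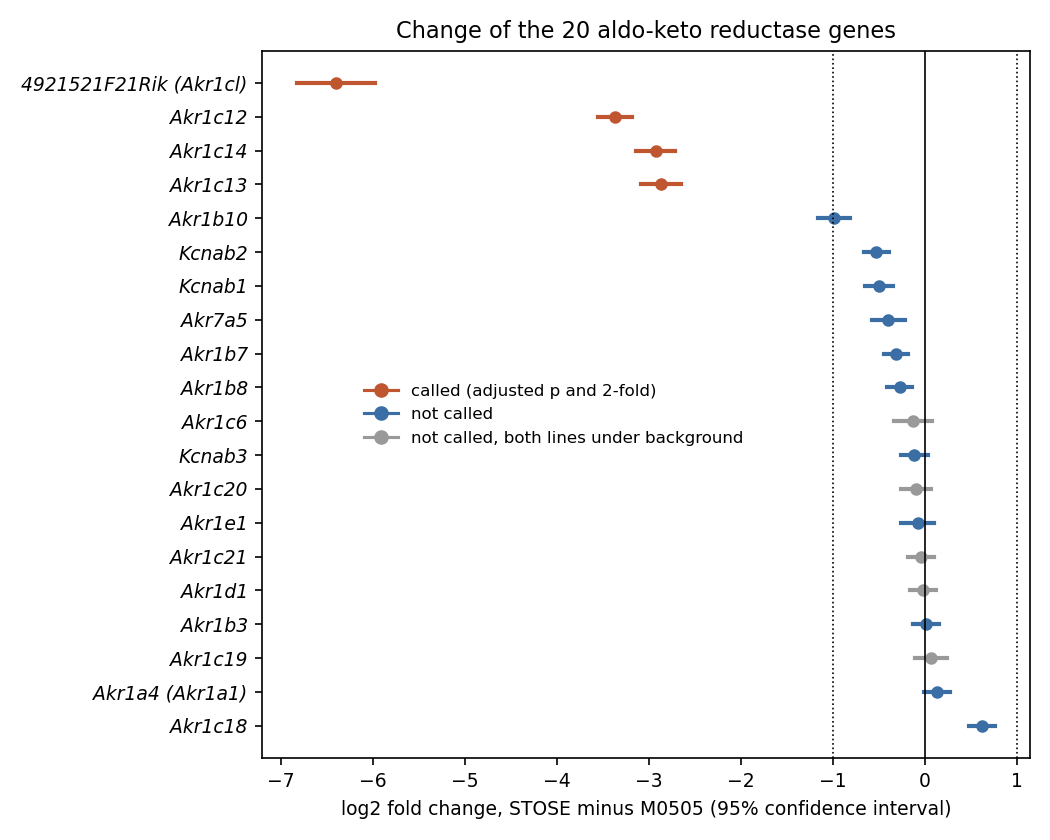
Log2 fold change of STOSE minus M0505 (horizontal axis) for the 20 family genes, with 1 point per gene and bars for the 95% confidence interval of limma. Orange genes were called, blue genes were not, grey genes lay under background in both lines, and dotted lines mark 2-fold. *4921521F21Rik* stands at -6.40, the 3 called genes of the cluster lie between -3.37 and -2.87, and *Akr1c18* stands at 0.62.

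Of the Akr1b branch, *Akr1b3*, *Akr1b7* and *Akr1b8* were not called. *Akr1b3* is aldose reductase, which makes sorbitol from glucose in the polyol pathway. Its log2 values were 12.04, 12.08 and 12.06 in M0505 cells and 11.98, 12.13 and 12.10 in STOSE cells, and the lines overlapped. The difference of 0.01 had a confidence interval of -0.13 to 0.16 (limma adjusted p = 0.853). With each array centred on its median it was 0.21 and passed the adjusted p (0.0151). The table holds 4 probe sets with this symbol, whose differences ran from -0.0034 to 0.015. RefSeq lists a transcribed pseudogene of *Akr1b3* on chromosome 1, and how far these probe sets read its RNA is uncertain.

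*Akr1b8*, first described as a growth factor-regulated aldose reductase relative, had log2 values of 10.32, 10.37 and 10.28 in M0505 cells and 10.11, 9.999 and 10.03 in STOSE cells. The lines did not overlap, and the difference of -0.28 (standard error 0.06) passed the adjusted p of limma (0.00417) but not 2-fold. *Akr1b7*, the vas deferens and adrenal member that clears an aldehyde made in steroid synthesis, lay close to background. Its log2 values were 4.83, 4.93 and 4.91 in M0505 cells and 4.60, 4.54 and 4.58 in STOSE cells, a difference of -0.32 (standard error 0.06, limma adjusted p = 0.00164). All 3 STOSE arrays were under background, and the M0505 mean was 1.11-fold above it. With each array centred on its median, neither *Akr1b7* (-0.12, adjusted p = 0.0911) nor *Akr1b8* (-0.08, adjusted p = 0.236) passed the adjusted p of limma. That centring moved the median of all genes by 0.20 and the share of calls that were lower in STOSE cells from 60.8% to 44.5%.

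*Akr1b10*, an aldose reductase relative on the same cluster of chromosome 6, lay just outside the 2-fold threshold. Its log2 values were 9.10, 9.33 and 9.23 in M0505 cells and 8.31, 8.20 and 8.19 in STOSE cells. The difference of -0.99 (standard error 0.08, limma adjusted p = 1.02e-05) is 1.98-fold, and the gene was called without M0505 replicate 1 (-1.05) and without STOSE replicate 1 (-1.03).

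*Akr1e1*, an anhydrofructose reductase at the far end of the chromosome 13 cluster, had log2 values of 7.22, 7.40 and 7.49 in M0505 cells and 7.30, 7.30 and 7.26 in STOSE cells. The lines overlapped, and the difference of -0.08 had a confidence interval of -0.26 to 0.10 (limma adjusted p = 0.405). *Akr1a4* (*Akr1a1*), the aldehyde reductase of ascorbate synthesis, had log2 values of 11.42, 11.53 and 11.54 in M0505 cells and 11.57, 11.65 and 11.65 in STOSE cells. The lines did not overlap, but the difference of 0.13 (confidence interval -0.01 to 0.27) did not pass limma's test (adjusted p = 0.0988). After centring of the arrays *Akr1a4* passed the adjusted p (0.33, adjusted p = 0.00191).

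Of the 11 further family genes, *Akr1a4* and *Akr1b10* included, limma and the methods' t-test called 0 in either direction. By limma, 7.59% of all genes were called lower and 4.9% higher, and 5 of the 11 were under background in both lines. At an unadjusted p under 0.05, 4 of the 11 were lower and 0 higher, beside 26.1% and 35.1% of all genes, and 4 were lower at the adjusted p of limma, beside 24.8%. *Akr1c6*, *Akr1c19*, *Akr1c20*, *Akr1c21* and *Akr1d1*, the last a steroid reductase of bile acid synthesis in liver, were under background on every array of both lines. After centring, *Akr1c19* (0.26, adjusted p = 0.0171), *Akr1c21* (0.15, 0.0479) and *Akr1d1* (0.18, 0.0277) passed the adjusted p of limma, still at these dim levels. *Akr7a5*, which reduces aflatoxin aldehyde and succinic semialdehyde, differed by -0.40 (standard error 0.08, limma adjusted p = 0.00222). Among the potassium channel beta subunits, which share the enzyme fold, *Kcnab1* differed by -0.50 (adjusted p = 0.000251 from limma), *Kcnab2* by -0.53 (adjusted p = 8.41e-05) and *Kcnab3* by -0.12 (adjusted p = 0.143).

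In the RefSeq order of chromosome 13 the 9 genes of the cluster follow each other as *Akr1c14*, *Akr1c18*, *Akr1c13*, *Akr1c19*, *Akr1c12*, *Akr1c6*, *Akr1c20*, *Akr1c21* and *Akr1e1*. The 3 called genes thus alternate with *Akr1c18*, which was higher at the adjusted p alone, and *Akr1c19*, which was under background. On one side of the cluster *Ucn3* and *Tubal3* were under background with differences of 0.11 and 0.12. On the other side *Klf6*, a zinc finger transcription factor, was called higher (1.07, standard error 0.07, limma adjusted p = 2.86e-06), and *Pitrm1*, a mitochondrial peptidase, differed by 0.64 (standard error 0.06, adjusted p = 2.71e-05). In the cluster of chromosome 6 the order is *Akr1b3*, *Akr1b8*, *Akr1b10* and *Akr1b7*, and 0 of the 4 flanking genes were called. Of these, *Slc35b4* (0.06) and *Bpgm* (0.12) did not pass the adjusted p of limma, while *Exoc4* (-0.65, adjusted p = 1.80e-05) and *Cald1* (-0.17, adjusted p = 0.0403) did. Beside *4921521F21Rik* on chromosome 1, *Plekhm3* was called lower (-1.22, standard error 0.06, limma adjusted p = 6.96e-07), while *Fzd5* differed by -0.17 and the lens crystallin genes *Cryge* and *Crygd* were under background.

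**Figure D3:**
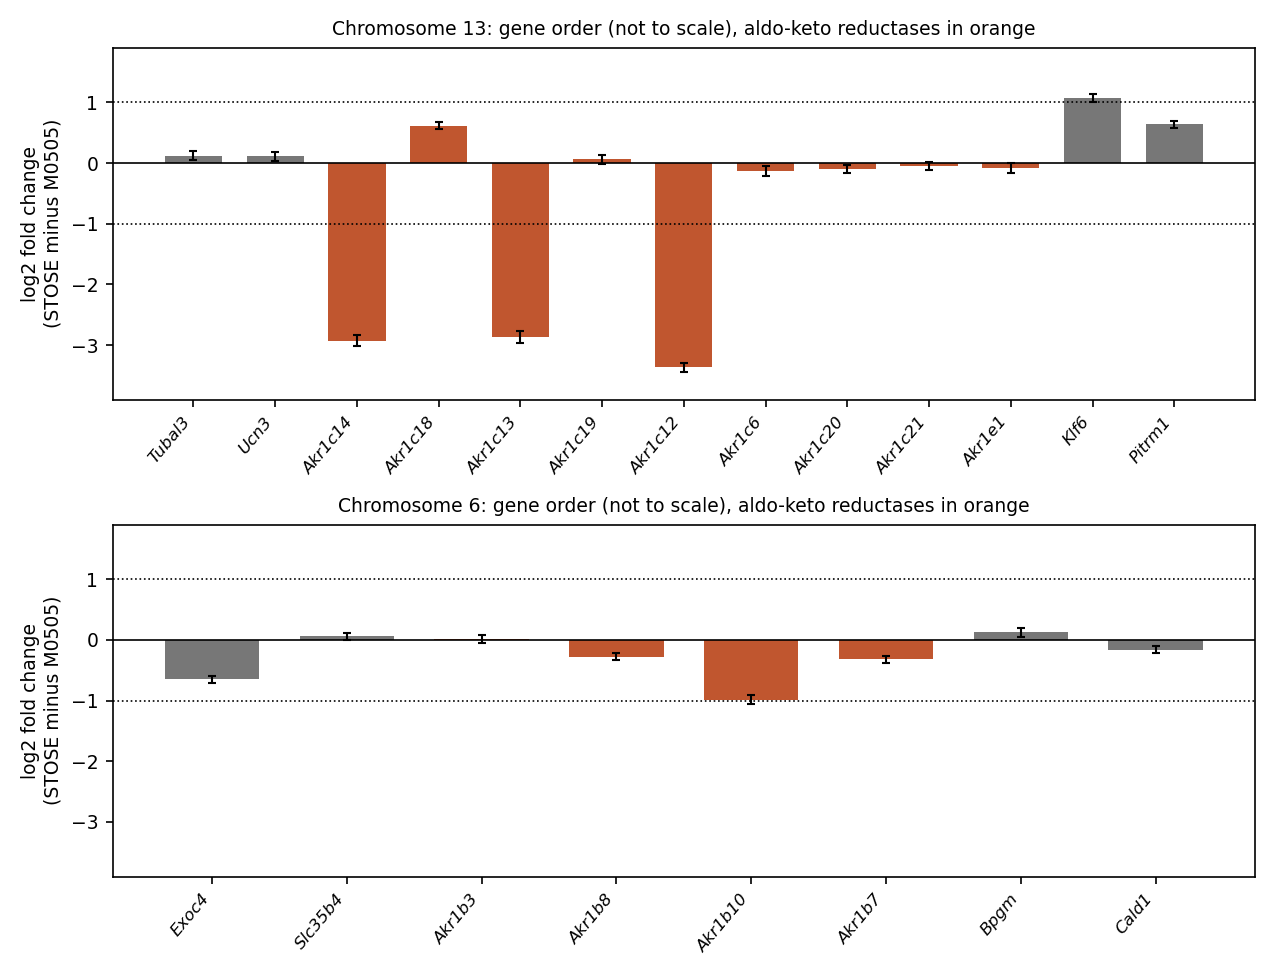
Log2 fold change of STOSE minus M0505 (vertical axis, bars from 0 with the standard error of limma) for the genes of the clusters on chromosomes 13 and 6 in RefSeq order, with 2 neighbours on each side, distances not to scale and dotted lines at 2-fold. *Akr1c14*, *Akr1c13* and *Akr1c12* reach -2.93, -2.87 and -3.37, and *Akr1c18* between them stands at 0.62.

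Genes related to the family by substrate, pathway or regulation were read in lists, none of which were tested as sets. The counts and medians of these lists stand beside 7.59% of all genes called lower, 4.9% called higher and a median of 0.08. Of 20 carbonyl reductases and polyol or methylglyoxal enzymes, 3 were called lower and 1 higher, with a median log2 fold change of -0.54. The lower genes were *Rdh10* (-3.69), a retinol dehydrogenase, *Dhrs7* (-1.55) and the carbonyl reductase *Cbr3* (-1.15). *Cbr3* was under 2-fold without M0505 replicate 1 (-0.93) and after centring of the arrays (-0.95). The higher gene was the alcohol dehydrogenase *Adh7* (3.97, standard error 0.12, limma adjusted p = 6.08e-08). *Sord*, the enzyme after *Akr1b3* in the polyol pathway, was singled out after its value was seen and was not called (-0.60).

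Of 19 aldehyde dehydrogenases, some of which oxidize aldehydes that aldo-keto reductases reduce, 6 were called lower and 2 higher, with a median of -0.49. The largest falls were those of *Aldh1a2* (-7.41), the retinoic acid-making enzyme, which was under background in STOSE cells, *Aldh1a7* (-3.04), *Aldh1l1* (-2.76) and *Aldh6a1* (-2.47). *Aldh3a1* (2.70) and *Aldh1l2* (1.16) were higher, the latter under 2-fold without M0505 replicate 2 (0.90) and not called by the methods' t-test.

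Of 23 genes of steroid synthesis and conversion, 7 were called lower and 1 higher, with a median of -0.13. *Star*, the cholesterol carrier of steroid-making cells, fell most (-5.97), followed by *Hsd17b11* (-2.25), *Hsd3b7* (-2.01) and *Hsd11b2* (-1.76). *Srd5a1*, a reductase that makes substrates of *Akr1c14*, was higher (1.81, standard error 0.10, limma adjusted p = 1.99e-06). Its namesakes *Srd5a2* (-1.67, limma adjusted p = 0.00039) and *Srd5a3* (-1.06) were called lower, and 2 STOSE arrays of *Srd5a2* were under background. *Srd5a3* was under 2-fold after centring (-0.86) and with its probe sets averaged (-0.49). *Cyp11a1*, *Hsd3b1*, *Cyp17a1*, *Lhcgr* and *Prlr*, the theca and luteal markers measured, were all under background in both lines. Of 7 granulosa markers, *Inha*, an inhibin subunit, was called lower (9.61 in M0505 and 5.68 in STOSE), and *Fshr*, *Cyp19a1* and *Hsd17b1* were under background in both lines. The linear levels of the granulosa list summed to between 1091 and 1217 on the M0505 arrays and between 436 and 440 on the STOSE arrays. Of 5 leukocyte markers *Cd68* was called lower (9.78 and 6.96), while *Ptprc*, *Emr1* and *Itgam* were under background in both lines, and the list summed to 798 to 1052 in M0505 cells and 190 to 238 in STOSE cells. Of 5 endothelial markers *Kdr* was called lower (9.58 and 4.41, the latter under background), *Pecam1* was under background in both lines, and the sums were 857 to 941 and 144 to 149. A linear sum is weighted to the brightest genes. The median log2 fold changes of the granulosa, leukocyte and endothelial lists were 0.01, 0.02 and 0.01. At limma's adjusted p alone, 2, 1 and 1 of their markers were higher, beside 31.6% of all genes. In the same order 2, 1 and 2 were lower, beside 24.8%. The part of these markers in the falls of the Akr1c genes was not tested.

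Several aldo-keto reductases can make prostaglandin F, and of 13 prostaglandin enzymes and receptors 2 were called lower and 1 higher, with a median of -0.01. *Ptgr1* (-2.53) and *Ptgr2* (-1.06), which inactivate prostaglandins, were lower, the latter under 2-fold after centring (-0.86). *Ptgs2* (1.07), the inducible cyclooxygenase, was higher, and was under 2-fold without M0505 replicate 2 (0.98) or M0505 replicate 3 (0.94). *Ptgfr*, the receptor for prostaglandin F, had a measured difference just outside 2-fold (-0.99) and was named for that. Its 3 STOSE arrays were under background, and its M0505 mean was 1.504-fold above it. *Ptgfr* was called after a further quantile normalization (-1.02). Leaving out M0505 replicate 2 or 3 or STOSE replicate 2 or 3 also gave a call (-1.14 to -1.03).

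NRF2 is the transcription factor that drives several human aldo-keto reductases, and of 20 genes of NRF2 and its known targets 4 were called higher and 2 lower, with a median of -0.03. *Osgin1* (2.62), the cystine transporter *Slc7a11* (1.67) and *Gstp1* (1.15) were higher, and *Taldo1* (-1.55) and *Gstm1* (-1.09) were lower. *Slc7a11* was not called by the methods' t-test, nor *Gstm1* after centring (-0.89). *Nqo1* (1.06, standard error 0.39, limma adjusted p = 0.0486) was not called without M0505 replicate 2 (0.70, adjusted p = 0.161), M0505 replicate 3 (0.94, 0.137), STOSE replicate 1 (0.81, 0.135), STOSE replicate 2 (1.19, 0.0608) or STOSE replicate 3 (1.18, 0.0675). *Nqo1* was also lost under a further quantile normalization, the trend and robust fit and the methods' t-test. *Nfe2l2*, the gene of NRF2 itself, was not called (-0.28).

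**Figure D4:**
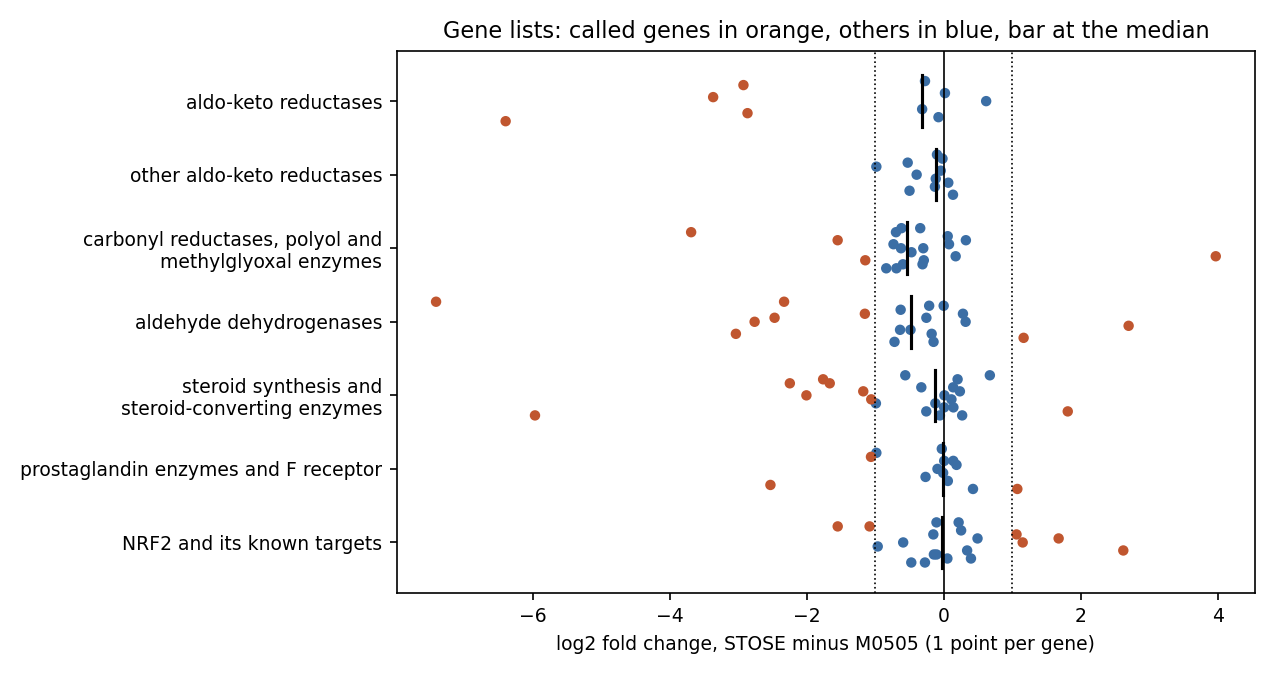
Log2 fold change of STOSE minus M0505 (horizontal axis) with 1 point per gene for the 9 aldo-keto reductases, the 11 further family genes and 5 lists of related enzymes, called genes in orange, the others in blue and a black bar at each median. The medians run from -0.54 in the carbonyl reductases to -0.01 in the prostaglandin enzymes, and the 4 called aldo-keto reductases lie between -6.40 and -2.87.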

How the data were processed

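Per the labels and the methods of the study, total RNA was labeled and hybridized to Affymetrix Mouse Gene 1.0 ST arrays, 3 for M0505 and 3 for STOSE. The authors made log2 values by robust multi-array average (RMA) normalization, which corrects probe signals for background, gives all arrays the same distribution and combines the probes of each probe set. Differences are therefore relative to the other genes, and RMA shrinks the differences of dim probe sets. The submitters' processing notes name Affymetrix Expression Console and RMA, and versions and genome build are not given in the sources used here. The deposited log2 table held 28944 probe sets, 23530 of them with a gene symbol, beside the authors' mean per line and a linear fold change between the means computed by the authors, which were not used. An array has no read depth. The number of arrays limits precision, and the smallest two-sided p of an exact permutation test with 3 arrays a line is 0.1.

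STOSE was compared with M0505 with limma 3.58.1 in R 4.3.3 (lmFit and eBayes, no covariate, 1 probe set per gene), with Benjamini-Hochberg adjustment over 20405 genes. The code was tested on simulated data. The members and lists were chosen with earlier results of these data known. The motifs searched, the olfactory receptor background and the window of 250 bases were chosen in the same way. The genes named are all members, the called genes of the lists up to 4 per direction, the 2 nearest genes on each side and the 5 genes most like *4921521F21Rik*, with the cell type markers that were called, or under background in both lines. A marker of the lists is not reported here. *Sord*, *Ptgfr*, *Nfe2l2*, *Srd5a2* and *Srd5a3* were named outside this rule after their values were seen. List symbols not in the table were matched through RefSeq synonyms of 1 gene. Upstream windows were read from RefSeq promoter sequences of GRCm38.p6 and aligned globally with Biopython 1.88. Alternatives were centring of each array, another round of quantile normalization, filters that drop the dimmest 25% or 50% of genes, averaging over a gene's probe sets, limma with trend and robust estimation, the methods' t-test with equal variances, no or a 4-fold threshold, a block on the replicate number and fits that omit 1 array.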

Additional observations from a re-analysis of the deposited data

How the results depend on the processing

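*4921521F21Rik*, given as a description, *Akr1c12*, *Akr1c13* and *Akr1c14* were lower past the threshold under every alternative that held the gene, 16 for each gene and 15 for *Akr1c12*, which was among the dimmest 50% of genes. Their log2 fold changes ranged from -6.60 to -6.20, -3.43 to -3.17, -2.92 to -2.67 and -3.02 to -2.73. Dropping the fold threshold could not lose a call. Averaging over probe sets could not move these fold changes, since each of these genes has 1 probe set. The dim filters, the trend and robust fit, the methods' t-test, the changed thresholds and the replicate block also left them as they were. The ranges therefore come only from centring, the further quantile normalization and the fits that omit 1 array. The count of the 9 genes called lower was 4 whichever array was omitted, and 3 without the dimmest 50%. With no fold threshold, 1 of the 9 genes was higher, 5066 of all genes were lower and 6454 higher, and 65 genes of the related lists passed in place of 29. At 4-fold these counts were 509, 186 and 13. When 1 array was omitted, all genes lower ranged from 1508 to 1591 and higher from 955 to 1065, and the related list genes from 27 to 30.

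Small differences changed sign. A further quantile normalization gave -0.051 for *Akr1b3* and 0.070 for *Akr1e1*. Centring each array on its median gave 0.12 for *Akr1e1*, 0.068 for *Akr1c6*, 0.099 for *Akr1c20*, 0.15 for *Akr1c21*, 0.18 for *Akr1d1* and 0.081 for *Kcnab3*. *Akr1d1* ranged from -0.062 to 0.013 and *Akr1b3* from -0.013 to 0.059 when 1 array was omitted, and the cause was not tested. The signal over background limits *4921521F21Rik*, *Akr1c12* and *Akr1b7*, whose STOSE arrays were all under background.

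Arrays of the 2 lines that carry the same replicate number deviated together with correlations of 0.26, 0.04 and 0.25 across genes. Arrays with different numbers gave -0.29 to 0.12, so the values of replicates 1 and 3 were above all of these. No label pairs the samples, and the main fit took no block. Whether the numbers mark pairs was not tested. With the replicate number as a block, 4 of the 9 genes were called lower, 0 were called higher, and 2549 genes were called in place of 2548.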
